A study of Saccharomyces cerevisiae with 18 samples.

Results

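Budding yeast cells that carry Swi6 with its cysteine replaced by alanine (C404A mutant) were compared with cells that lack SWI6 (swi6 deletant), both after treatment with linoleic acid hydroperoxide (LoaOOH). The comparison rests on 6 arrays, the 3 titled as LoaOOH-treated C404A mutant and the 3 titled as LoaOOH-treated swi6 deletant, out of 18 arrays in the series. The other 12 arrays hold the untreated C404A mutant, the untreated deletant, and wild type with and without LoaOOH, with 3 arrays in each of the 6 groups. All cells grew at 30 °C in synthetic medium lacking leucine to an OD600 of 0.4, and treated cells received 30 µM LoaOOH for 45 min. The sources used here do not give how the C404A allele was introduced or whether a strain is 1 clone. Nothing in the labels says that replicates came from separate cultures, so the p-values measure the spread between these samples, which may be technical, and the number of arrays limits the precision.

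Swi6 is the subunit that SBF (Swi4 with Swi6) and MBF (Mbp1 with Swi6) share. These complexes switch on genes of budding, cell wall growth and DNA replication late in G1, and Swi4 or Mbp1 provides the contact with DNA. SBF acts mainly as an activator, whereas MBF also holds its targets down outside G1, so that loss of Swi6 can either lower or raise a target. LoaOOH is a lipid hydroperoxide, a product of the oxidation of unsaturated fatty acids, and it imposes oxidative stress on cells. The comparison of mutant and deletant asks which transcripts depend on whether the cell holds a cysteine-mutated Swi6 or no Swi6 under that stress.

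The values are log2 signals of the deposited expression table, 1 per gene and array, for 5449 genes of S. cerevisiae. A difference is the mean of the C404A arrays minus the mean of the deletant arrays on the log2 scale, so a positive value means a higher level in the C404A mutant. A gene is called when limma's moderated test, fitted to all 18 arrays with 6 group means, gave an adjusted p under 0.05 (Benjamini-Hochberg over all genes). Probe-set levels below 4.518, the level that 95 percent of the probe sets for another organism on the array did not reach, are treated as background. The median signal of the 18 arrays over these genes ran from 10.56 to 10.64. In bulk samples, fewer cells that express a gene and less RNA per cell cannot be told apart.

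SWI6 itself, the gene that was deleted, checks the labels. Its log2 signal was 10.48, 10.15 and 10.26 on the C404A arrays and 3.64, 4.33 and 3.13 on the deletant arrays. All 3 deletant values lay below background and all 3 C404A values lay far above it, near the wild type values of 10.68, 10.29 and 10.65. Set against background, the signal of the C404A strain exceeded that of the deletant by at least 54.8-fold (limma, adjusted p = 5.16e-11). This bears on the deletant label only, since the C404A change would not remove the mRNA. Genes of a cells were expressed at like levels in both strains, with STE2, the alpha-factor receptor, at 13.63 and 13.8, and BAR1, the protease that degrades alpha-factor, at 12.54 and 12.83. Of 15 mating-type and haploid marker genes, HO was the 1 that passed the test. MF(ALPHA)1, an alpha-factor gene, had means of 6.199 and 7.005 (adjusted p = 0.0815).

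The C404A arrays numbered 2, treated and untreated, stood apart before any genotype comparison. Along the 99 genes that LoaOOH raised in the deletant, the LoaOOH-treated C404A arrays 1, 2 and 3 lay 0.407, 0.0774 and 0.424 above the mean of the untreated C404A arrays (median over these genes, log2). The untreated C404A array 2 lay 0.356 above the other untreated C404A arrays. Against those same other arrays, the treated arrays 1, 2 and 3 lay at 0.493, 0.175 and 0.563. Among the replicates numbered 2 the treated array thus had the lower level of these genes. The 3 treated wild type arrays lay 0.483, 0.691 and 0.48 above untreated wild type. The 95 genes that LoaOOH lowered in the deletant also set replicate 2 apart, with -0.294, 0.0232 and -0.284 for the treated C404A arrays 1, 2 and 3. The treated C404A arrays were also wide as a group. Over all genes, the SD of each from the mean of the others was 0.256, 0.304 and 0.28 for replicates 1, 2 and 3. In the treated deletant it was 0.188, 0.171 and 0.143. The C404A replicate 2 arrays were kept under their labels, and the counts below are also given without the treated one.

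**Figure D1:**
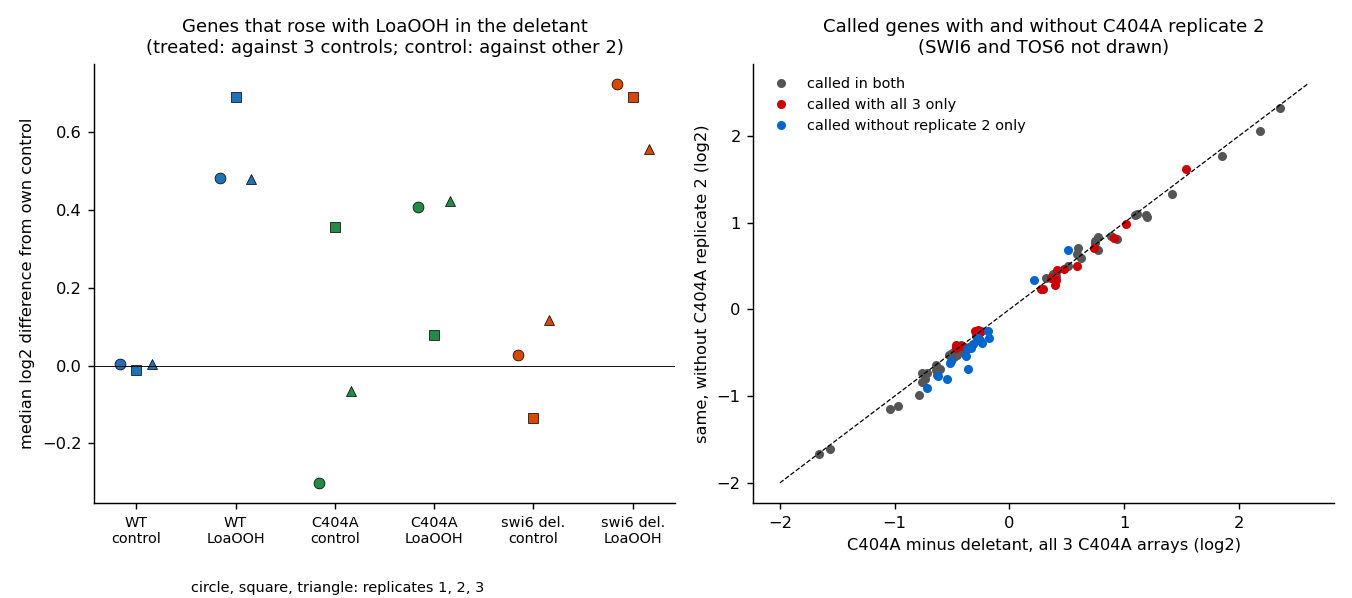
Left: median log2 difference, over the 99 genes that LoaOOH raised in the deletant, of each treated array from its 3 own controls and of each control array from the other controls of its genotype (circle, square and triangle are replicates 1, 2 and 3). The treated C404A replicate 2 sits at 0.0774, below the control C404A replicate 2 at 0.356. These 2 values have different baselines, and against control replicates 1 and 3 alone the treated array lies at 0.175 (not drawn). Right: log2 difference between C404A mutant and deletant of each gene called with all 3 treated C404A arrays, without replicate 2, or in both, with the dashed line marking equal values.

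Between the LoaOOH-treated C404A mutant and the LoaOOH-treated deletant, 79 of 5449 genes (1.45%) were called, 36 higher in the C404A mutant (0.661%) and 43 lower (0.789%). On each of these 79 genes all 3 arrays of 1 strain lay beyond all 3 of the other, as they did for 981 of all genes (18%). Most differences were small. Of the called genes, 15 differed by at least 1 on the log2 scale, 12 of them higher and 3 lower in the C404A mutant, while 37 differed by less than 0.5. The median over the 36 higher genes was 0.74 and over the 43 lower genes -0.46, against -0.02 over all genes and a median standard error of 0.10. A further 626 genes had an unadjusted p under 0.05 without being called.

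Without the treated C404A replicate 2, 77 genes were called (1.41%), 26 higher (0.477%) and 51 lower (0.936%). Of the 79 genes, 60 were called in both fits, 24 higher and 36 lower, and all 79 kept their direction. The 19 genes no longer called were 12 higher and 7 lower ones, among them YPS3, COS12, TIR1, YHB1, MCD1 and GAT1. Replicate 2 was the highest of the 3 treated C404A arrays for 52.8% of called genes that were higher, for 60.5% of those that were lower and for 36.2% of all genes. Leaving out deletant replicate 1, 2 or 3 left 50, 50 and 45 calls, and leaving out C404A replicate 3 left 28 lower genes in place of 43. In the fits without each of the 6 arrays, 40 genes (18 higher, 22 lower) were called every time. A fit to the 6 arrays of the comparison alone called 26 genes.

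The leading genes kept their size without the treated C404A replicate 2. TOS6 was then 60.3-fold higher in the C404A mutant than in the deletant, SVS1 4.99-fold, HO 4.15-fold, CLB6 3.4-fold and CSM3 2.13-fold. DIN7 was 3.19-fold lower, PLM2 3.06-fold and MEP2 2.23-fold. All 8 were called in that fit, so these differences were about as large without the treated C404A replicate 2.

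After SWI6, the highest differences belonged to targets of SBF that act at the cell surface or in the mating-type switch. TOS6, a cell wall protein, was at 12.42, 12.87 and 12.44 in the C404A mutant and at 6.22, 6.64 and 6.70 in the deletant. Wild type cells under LoaOOH had 12.54, 12.69 and 12.74, so the C404A values overlapped wild type and stood about as far above the deletant. The difference of 6.06 ± 0.16 (SE) between C404A mutant and deletant is 66.7-fold (adjusted p = 2.51e-12). Set against wild type, TOS6 differed by -0.08 in the C404A mutant (adjusted p = 0.819) and by -6.14 in the deletant (adjusted p = 2.07e-12).

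SVS1, a cell wall protein needed for resistance to vanadate, gave 13.00, 13.17 and 13.13 in the C404A mutant and 10.64, 10.91 and 10.71 in the deletant. All 3 C404A arrays were within or above the wild type range of 12.9 to 13.16, and the deletant arrays lay well below it. The difference was 5.11-fold (95% interval 4.38 to 5.96, adjusted p = 1.40e-09). HO, the endonuclease that starts mating-type switching, was at 10.98, 11.25 and 10.74 in the C404A mutant and at 8.69, 8.72 and 9.02 in the deletant. That is a 4.54-fold difference (95% interval 3.49 to 5.89, adjusted p = 1.93e-06), and wild type arrays stood at 10.58, 11.02 and 11.17. Neither SVS1 (0.11, adjusted p = 0.56) nor HO (0.07, adjusted p = 0.859) differed detectably between the C404A mutant and wild type.

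Of the 35 measured SBF targets, 8 were higher in the C404A mutant and 1 was lower, with a list median of 0.09, whereas 0.661% of all genes were higher and their median was -0.02. Beside TOS6, SVS1 and HO these were CSI2, AXL2, MNN1, TOS2 and EXG1. CSI2, at 10.8, 11.3 and 11.0 against 9.72, 9.90 and 9.89, was 2.30-fold higher (adjusted p = 7.05e-05). AXL2, a membrane protein that marks the axial bud site, was higher by 0.89 ± 0.11 (SE), and EXG1, the major exo-glucanase of the cell wall, by 0.41 ± 0.05 (SE, adjusted p = 7.89e-05). EXG1 shows how tight the arrays could be, with 13.11 on each deletant array and 13.48, 13.56 and 13.51 on the C404A arrays. MNN1, a mannosyltransferase of the Golgi, was higher by 0.63 and TOS2, which helps to place Cdc24 at the bud site, by 0.51. WSC2, a sensor of cell wall stress, was the 1 lower member, at 11.45, 11.43 and 11.38 against 11.98, 11.89 and 11.96 (adjusted p = 0.00671). Without the treated C404A replicate 2, 9 members were higher and 1 lower, with CWP1, a mannoprotein of the cell wall, as the addition (0.69, adjusted p = 0.0397).

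**Figure D2:**
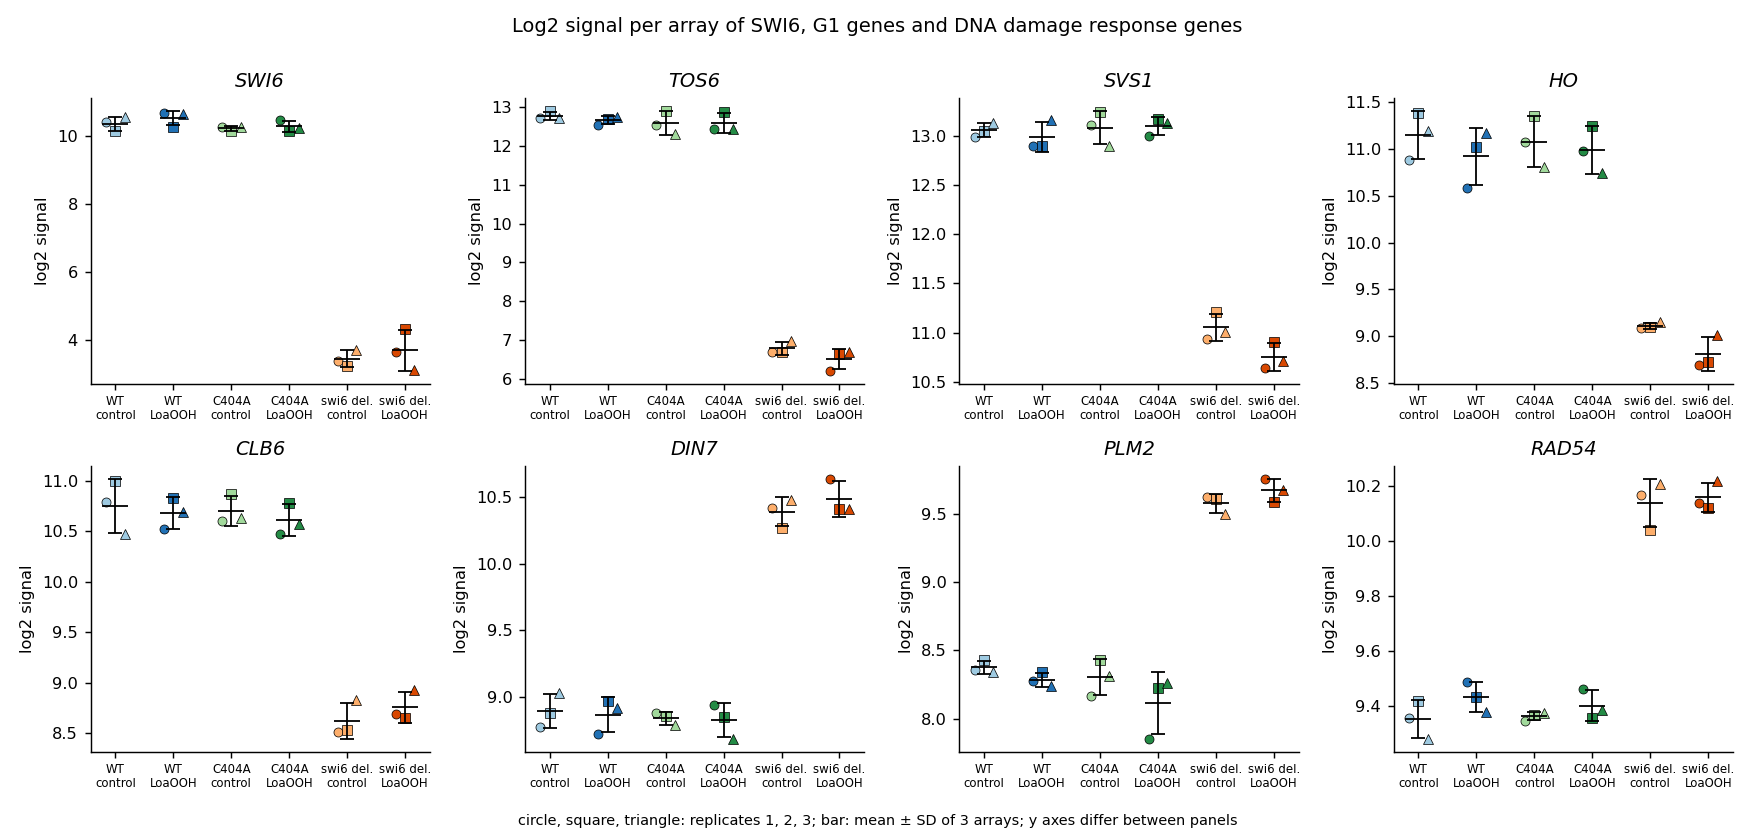
Log2 signal of 8 genes on each of the 18 arrays (circle, square and triangle are replicates 1, 2 and 3, black marks are the mean ± SD of 3 arrays, y axes differ between panels). For SWI6, TOS6, SVS1, HO and CLB6 the deletant arrays lie below those of the other genotypes, and for DIN7, PLM2 and RAD54 they lie above.

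MBF targets divided into both directions. Of 47 measured members, 4 were higher in the C404A mutant (CLB6, CSM3, MCD1 and TOS2) and 9 were lower (PLM2, RAD54, IRR1, DUN1, CTF18, CDC21, MSH6, CDC45 and RFA2), against 0.661% and 0.789% of all genes. The list median was -0.17, and 38 of the 47 differences were below 0, compared with 3068 of all 5449. Without the treated C404A replicate 2 the counts were 3 higher and 12 lower. Without deletant replicate 1, and likewise without deletant replicate 3, 8 members were called in place of 13, and a fit to the 6 compared arrays called 6. TOS2 stands on both the SBF and the MBF list.

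CLB6, a B-type cyclin that promotes entry into S phase, had the highest difference of the MBF list. Its signals were 10.47, 10.78 and 10.57 in the C404A mutant and 8.69, 8.65 and 8.93 in the deletant, and wild type stood at 10.52, 10.83 and 10.69. The C404A mutant was thus 3.61-fold above the deletant (95% interval 2.94 to 4.44, adjusted p = 1.01e-06) and its arrays overlapped those of wild type. MCD1, a cohesin subunit, was at 10.8, 11.01 and 10.64 against 10.31, 10.01 and 10.35, a difference of 0.59 (adjusted p = 0.0451). That call was lost without C404A replicate 2, where the difference was 0.50 (adjusted p = 0.149).

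The lower MBF targets included genes of DNA replication, repair and chromosome cohesion. PLM2, a forkhead-associated domain protein induced by DNA damage, was at 7.85, 8.23 and 8.26 in the C404A mutant and at 9.76, 9.58 and 9.68 in the deletant. Wild type was at 8.27, 8.34 and 8.24, which puts the deletant above both other strains. PLM2 was 2.95-fold lower in the C404A mutant than in the deletant (log2 -1.56, 95% interval -1.76 to -1.35, adjusted p = 9.04e-08). RAD54, a motor protein of homologous recombination, was at 9.46, 9.35 and 9.39 against 10.14, 10.12 and 10.22 in the deletant, with wild type at 9.49, 9.43 and 9.38. Its 1.69-fold difference had a standard error of 0.06 on the log2 scale (adjusted p = 1.44e-06).

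DUN1, a checkpoint kinase, was at 11.05, 10.94 and 10.84 in the C404A mutant against 11.62, 11.51 and 11.64, a log2 difference of -0.64 ± 0.13 (SE, adjusted p = 0.017). Its call was lost without C404A replicate 3 or without deletant replicate 1 or 3. IRR1, a cohesin subunit, was at 11.00, 11.21 and 11.02 against 11.74, 11.83 and 11.87, a difference of -0.73 ± 0.07 (SE, adjusted p = 1.18e-05). Against wild type, IRR1 differed by -0.22 in the C404A mutant (adjusted p = 0.0735) and was higher by 0.52 in the deletant (adjusted p = 6.97e-05). CDC21, thymidylate synthase, was lower by 0.45 (adjusted p = 0.0191), and that call was lost in 4 of the 6 fits that left out 1 array. CTF18, of the clamp loader used in cohesion, the mismatch repair gene MSH6, the helicase factor CDC45 and RFA2, a subunit of the single-strand DNA binding protein RPA, had differences of -0.50, -0.43, -0.42 and -0.35.

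The lowest difference of all genes was that of DIN7, a DNA-damage-induced nuclease of mitochondria. DIN7 was at 8.94, 8.85 and 8.69 on the C404A arrays, 10.64, 10.41 and 10.41 in the deletant and 8.72, 8.97 and 8.92 in wild type. It was 3.17-fold lower in the C404A mutant than in the deletant (log2 -1.66 ± 0.09, SE, adjusted p = 3.77e-08), and the C404A mutant overlapped wild type (difference -0.04, adjusted p = 0.835). Of the 29 measured genes of the DNA damage response, 4 were lower in the C404A mutant (DIN7, PLM2, RAD54 and DUN1) and 0 were higher, with and without C404A replicate 2, against 0.789% lower among all genes. The last 3 of these are also on the MBF list. The remaining 25 were not called, and the list median of -0.03 lay near the -0.02 of all genes. RNR3, a ribonucleotide reductase subunit that damage induces, differed by -0.22 (adjusted p = 0.432) and RNR1, the main large subunit of the same enzyme and an MBF target, by 0.27 (adjusted p = 0.297).

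Of 34 measured regulators of G1 and cyclins, SWI6 and CLB6 were called, and the differences of the other 32 did not pass the test. Among all genes 1.45% were called. SWI6 is the deleted gene, so its call follows from the genotype. In untreated cells 5 members were called higher and 1 lower. After LoaOOH, 7 members were higher and 10 lower in the C404A mutant at an unadjusted p under 0.05, against 251 and 454 of all 5449 genes. Without C404A replicate 1, 4 members were called, and without C404A replicate 3, 3 were, as on replicates 1 and 2 alone. SWI4, the DNA-binding subunit of SBF, was at 10.12, 10.02 and 9.54 in the C404A mutant and at 10.19, 10.28 and 10.56 in the deletant. The groups did not overlap, but the difference of -0.45 (95% interval -0.80 to -0.10) had an adjusted p of 0.255. Wild type arrays stood at 8.94, 9.24 and 9.20, below both mutants, and SWI4 lies on chromosome V, where both mutants stood above wild type at most genes. MBP1, the DNA-binding subunit of MBF, differed by -0.09 (95% interval -0.32 to 0.13). WHI5, the inhibitor of SBF, was at 8.62, 8.39 and 8.20 against 8.92, 8.95 and 8.90, a difference of -0.52 (95% interval -0.91 to -0.14, adjusted p = 0.231). NRM1, the corepressor of MBF, differed by -0.05 (95% interval -0.44 to 0.34).

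The other G1 and S-phase cyclins did not pass the test either. CLN1 was at 11.44, 11.53 and 11.51 in the C404A mutant and at 11.39, 11.36 and 11.16 in the deletant, a difference of 0.19 (95% interval -0.01 to 0.39, adjusted p = 0.41). CLN2 differed by 0.22 (95% interval 0.01 to 0.44, adjusted p = 0.373) with groups that overlapped. CLN3, the cyclin that acts upstream of SBF and MBF, differed by -0.31 (95% interval -0.55 to -0.08, adjusted p = 0.234). PCL1, a cyclin of the Pho85 kinase and an SBF target, was at 10.5, 10.69 and 10.62 against 10.29, 10.03 and 9.94, a difference of 0.51 just short of the threshold (95% interval 0.24 to 0.79, adjusted p = 0.068). CLB5, an S-phase cyclin like CLB6, differed by 0.38 (95% interval 0.08 to 0.69, adjusted p = 0.275). Without the treated C404A replicate 2, none of these 5 cyclins was called by limma, and PCL1 had an unadjusted p of 0.00663 and CLN3 one of 0.0374. Without C404A replicate 1 instead, CLN3 was called (-0.44, adjusted p = 0.0433 from limma). In untreated cells the differences of CLN1 (0.39, adjusted p = 0.041) and CLN2 (0.44, adjusted p = 0.0357) were called.

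A minority of the genes of nitrogen uptake and its control passed the test, all of them lower in the C404A mutant than in the deletant. Of 39 measured genes under nitrogen catabolite repression, the control that turns off the use of poor nitrogen sources while good ones are present, 6 were lower and 0 higher and 33 were not called, with a list median of -0.19, whereas 0.789% of all genes were lower. MEP2, a high-affinity ammonium permease, was at 10.99, 11.54 and 11.38 in the C404A mutant and at 12.18, 12.53 and 12.32 in the deletant, a 2.05-fold difference (adjusted p = 0.00127). Wild type was lower still, at 10.84, 10.91 and 10.81. DAL80, a GATA-type repressor of these genes, was at 6.13, 6.61 and 6.23 against 6.89, 7.63 and 7.35 in the deletant (difference -0.97 ± 0.16, SE, adjusted p = 0.00431). GAP1, the general amino acid permease, was at 12.31, 12.6 and 12.4 against 13.17, 13.23 and 13.19 (difference -0.76 ± 0.13, SE, adjusted p = 0.00428).

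MEP1, another ammonium permease, differed from the other nitrogen genes in its relation to wild type. It was at 9.47, 9.94 and 9.68 on the C404A arrays, 10.2, 10.34 and 10.45 in the deletant and 10.33, 10.18 and 10.18 in wild type. For MEP1 the C404A mutant was below wild type by 0.54 on the log2 scale (adjusted p = 0.00784) while the deletant differed by 0.10 (adjusted p = 0.698). For MEP2, DAL80 and GAP1 the deletant was above wild type by 1.49, 1.14 and 0.74, each called, and the C404A mutant stood 0.45 (adjusted p = 0.0855), 0.17 and -0.02 from wild type. The amino acid permease AGP1 (-0.48, adjusted p = 0.0419) and the activator GAT1 (-0.42, adjusted p = 0.0333) completed the 6. OPT2, an oligopeptide transporter, had a larger difference of -1.44 but wide arrays, from 7.55 to 8.61 on the C404A arrays and from 9.51 to 9.995 on the deletant arrays (adjusted p = 0.107). Without the treated C404A replicate 2, 7 members were lower, with the urea permease DUR3 (-0.91, adjusted p = 0.021) and the ammonium permease MEP3 (-0.40, adjusted p = 0.0303) added and GAT1 lost. The MEP1 call was lost without deletant replicate 3, where 3 of the 39 nitrogen genes were called. A fit to the 6 compared arrays called 1 of them, and a fit to replicates 1 and 2 alone called 0 by limma. Of the 39, 20 had an unadjusted p under 0.05 and a lower level in the C404A mutant, and 1 had a higher one, against 454 and 251 of all 5449 genes.

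**Figure D3:**
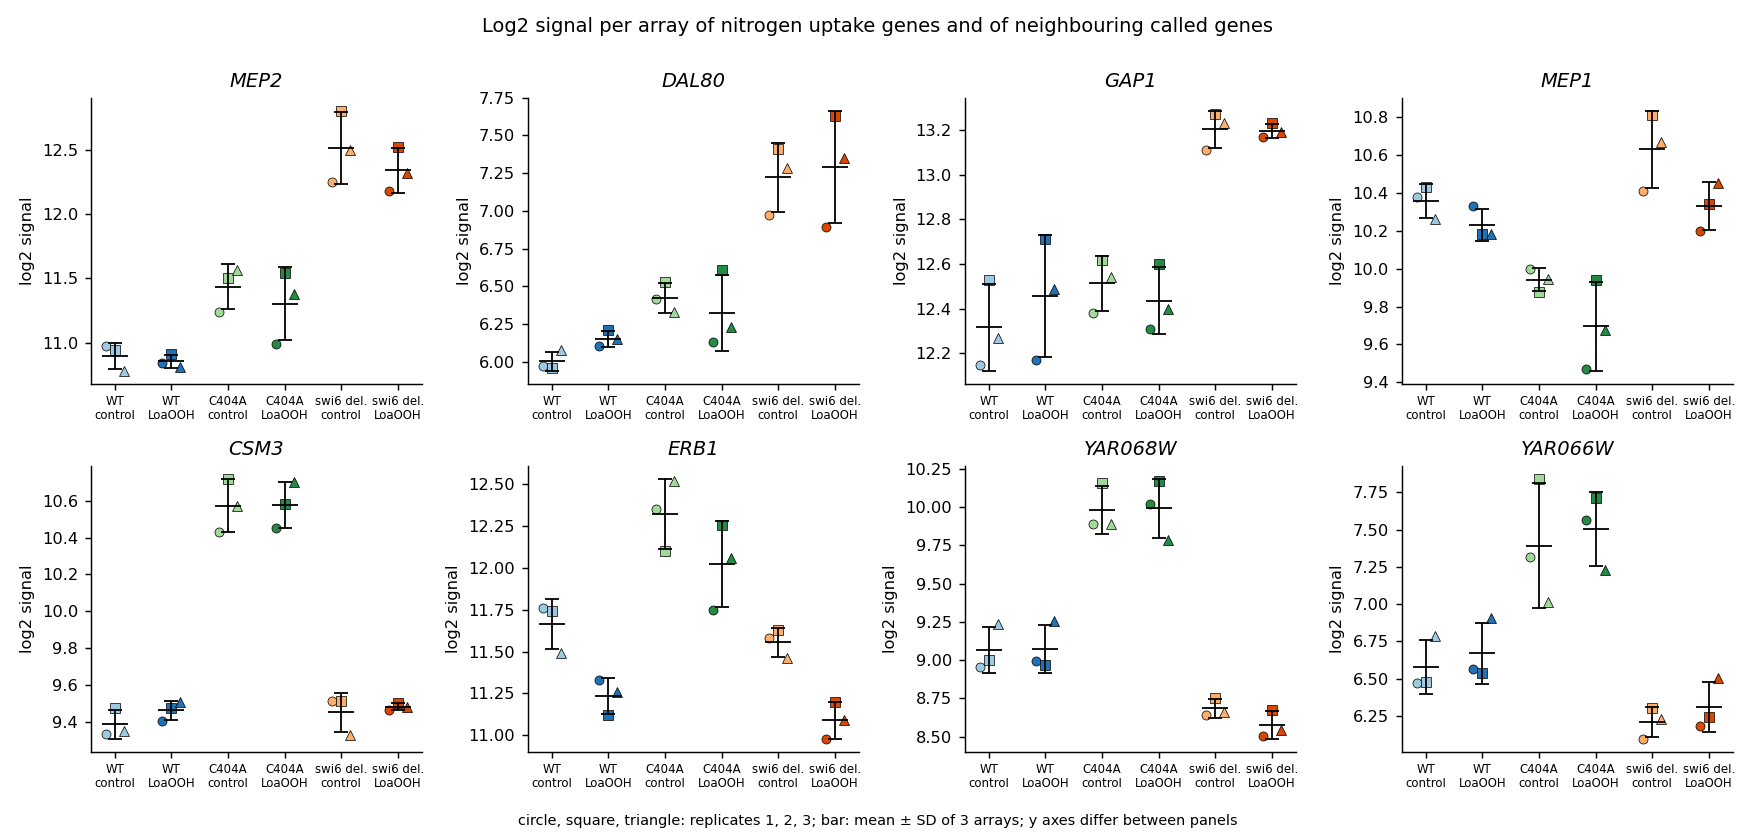
Log2 signal on each of the 18 arrays of 4 genes of nitrogen uptake and control (upper row) and of 4 genes that neighbour each other on chromosomes XIII and I (lower row), with circle, square and triangle for replicates 1, 2 and 3 and black marks for the mean ± SD of 3 arrays. The deletant arrays lie highest for MEP2, DAL80 and GAP1. For CSM3, ERB1, YAR068W and YAR066W the C404A arrays lie highest among arrays of the same treatment.

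At other genes the C404A mutant stood above both other strains. CSM3, an MBF target that protects stalled replication forks, was at 10.45, 10.58 and 10.7 on the C404A arrays, 9.47, 9.50 and 9.48 in the deletant and 9.41, 9.48 and 9.51 in wild type. Deletant and wild type overlapped and differed by 0.02 (adjusted p = 0.922), and the C404A mutant was 2.13-fold above the deletant (adjusted p = 1.01e-06). Its neighbours along chromosome XIII did the same. NUP116, a nuclear pore protein, was higher by 0.77 (adjusted p = 2.74e-05) and ERB1, a factor of large ribosomal subunit assembly, by 0.93 (adjusted p = 0.00077). Against wild type the C404A mutant was higher by 0.75 for NUP116, 1.11 for CSM3 and 0.79 for ERB1, while the deletant differed by -0.02, 0.02 and -0.15. The 3 measured genes on either side, from ARG80 to IOC4 and from FAR3 to STV1, had differences between -0.21 and 0.09 and none was called.

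YAR066W and YAR068W, which encode uncharacterised proteins and have close copies elsewhere in the genome, are the other called neighbours and lie on chromosome I. YAR068W was at 10.02, 10.17 and 9.78 on the C404A arrays, 8.51, 8.68 and 8.55 in the deletant and 8.99, 8.97 and 9.25 in wild type. Here the C404A mutant was above wild type by 0.92 and the deletant below it by 0.50, both called, and the difference between the mutants was 2.67-fold (adjusted p = 1.57e-06). YAR066W was 2.28-fold higher (adjusted p = 0.00223). The probe sets may also read the copies, so which locus contributed was not tested. COS12 (2.02-fold higher, adjusted p = 0.0333) and the lower genes PRM9 (log2 -0.79, adjusted p = 0.0385) and PAU2 (-0.63, adjusted p = 0.00366) belong to subtelomeric or repeated families for which the same holds. COS12 and PRM9 each lost their call in 5 of the 6 fits that left out 1 array.

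Members of the cell wall list were higher where they were called. WSC2, the sensor of cell wall stress that was lower among the SBF targets, is not on this list. Of 48 measured genes of the wall and its integrity pathway, 5 were higher in the C404A mutant and 0 lower, against 0.661% higher among all genes, of which TOS6, SVS1 and EXG1 are also SBF targets. The list median of -0.06 was below that of all genes, so the list did not move as a whole. YPS3, an aspartic protease anchored at the cell surface, was at 10.12, 10.08 and 10.5 against 8.71, 8.40 and 8.97, a 2.90-fold difference with an adjusted p of 0.0341. TIR1, a mannoprotein of the wall, was 1.88-fold higher (adjusted p = 0.0239). The calls of YPS3 and TIR1 were lost whichever of the 6 arrays was left out, and 3 or 4 members of the list were then called. SRT1, which makes the long lipid chain of dolichol, was 2.16-fold higher (adjusted p = 0.00223) and is on no list.

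Other genes named for the size of their difference were lower in the C404A mutant. ESC8, a protein of chromatin silencing, was at 9.33, 9.47 and 9.51 against 10.12, 10.21 and 10.14, a difference of -0.72 ± 0.08 (SE, adjusted p = 5.15e-05). PDS1, the securin that holds back chromosome separation, was at 9.75, 9.89 and 9.68 against 10.46, 10.38 and 10.39 (difference -0.64, adjusted p = 0.000524), and wild type at 9.78, 9.83 and 9.85 overlapped the C404A mutant. HLR1, a protein related to the Lre1 regulator of the cell wall, was lower by 0.61 (adjusted p = 0.00605).

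**Figure D4:**
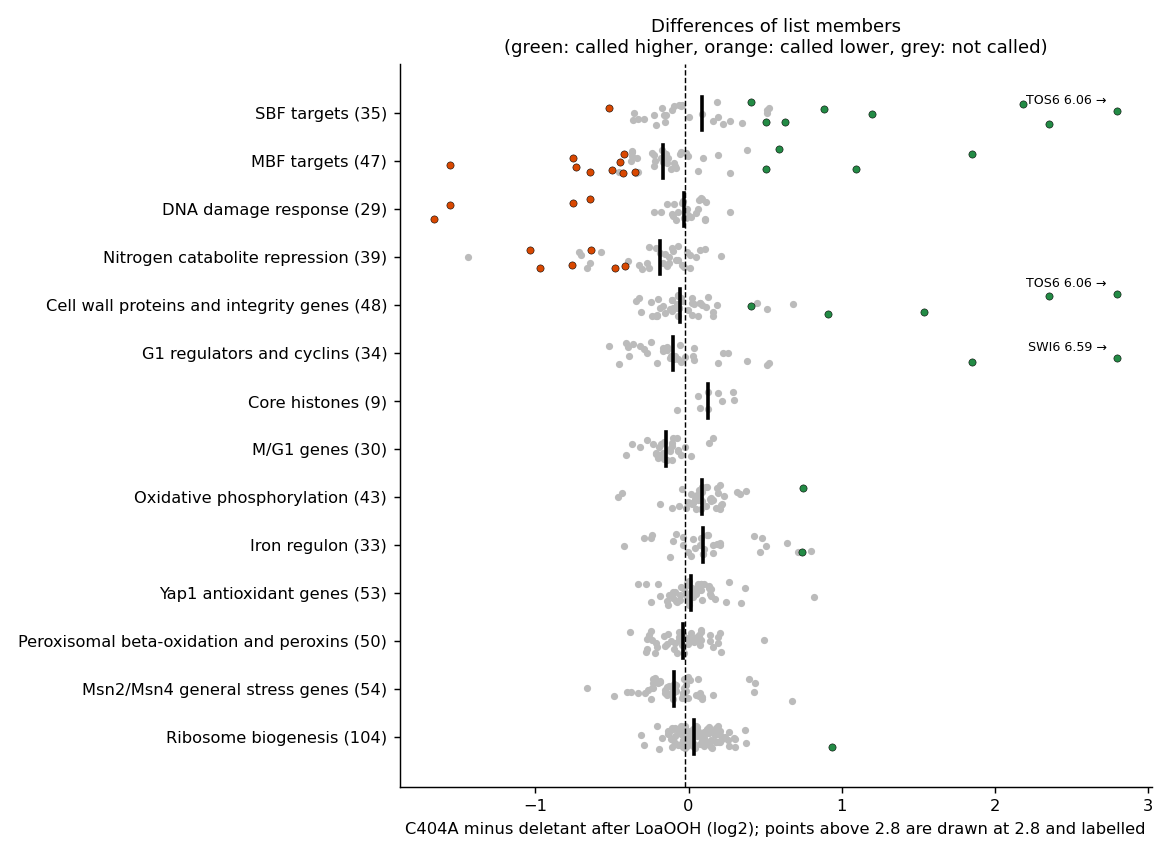
Log2 difference between C404A mutant and deletant after LoaOOH for each measured member of 14 gene lists (number of members in brackets), with black bars at list medians and a dashed line at the median of all genes (-0.02). Called members are drawn in green or orange among SBF targets (8 higher, 1 lower), MBF targets (4 higher, 9 lower), nitrogen genes (6 lower) and DNA damage genes (4 lower), and the Yap1, peroxisomal and general stress lists hold none.

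Lists that cover the response to peroxides and lipids held no called gene by limma. None of 54 general stress genes of Msn2/Msn4, 53 antioxidant genes of Yap1, 50 genes of peroxisomal beta-oxidation and peroxins, 41 genes of ergosterol and fatty acid synthesis, 38 Hsf1 chaperones or 25 drug efflux genes was called, with all arrays or without the treated C404A replicate 2. Their medians lay between -0.09 and 0.01. An unadjusted p under 0.05 was met by 705 of all 5449 genes. These 6 lists held 6, 4, 3, 6, 2 and 1 such genes, in the order Yap1, Msn2/Msn4, peroxisomal, sterol and fatty acid, chaperone and efflux. A fit with array weights also called 0 in each, whereas quantile normalization called 1 Yap1 gene and 1 of ergosterol and fatty acid synthesis, and the 6 compared arrays alone called 1 Yap1 gene. GPX2, a glutathione peroxidase that reduces lipid hydroperoxides, came nearest, at 12.74, 12.46 and 12.79 in the C404A mutant and 11.97, 11.71 and 11.86 in the deletant (difference 0.82 ± 0.20, SE, adjusted p = 0.0637). The groups did not overlap for GPX2, and wild type arrays spread from 11.85 to 12.9. The median of the Msn2/Msn4 list moved from -0.09 to 0.04 without the treated C404A replicate 2.

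Single members of further lists were called. CYC1, iso-1-cytochrome c, was at 11.62, 11.57 and 11.62 in the C404A mutant against 10.84, 10.86 and 10.87, a difference of 0.75 ± 0.11 (SE, adjusted p = 0.00122), and was the 1 of 43 genes of oxidative phosphorylation to be called. FRE1, a ferric reductase, was higher by 0.74 (1 of 33 iron regulon genes, adjusted p = 0.00322) and IMD2, an IMP dehydrogenase, by 0.77 (1 of 20 purine genes, adjusted p = 0.00333). IMD2 belongs to a family of near-identical genes. ERB1 was the 1 of 104 ribosome biogenesis genes and HO the 1 of 34 mating genes that were higher, and RGT2, a glucose sensor (-0.27), the 1 of 34 genes of glycolysis and hexose transport that was lower. The RGT2 call was lost whichever of the 6 arrays was left out (adjusted p = 0.109 without C404A replicate 2). CYC1, FRE1, IMD2, ERB1 and HO were also called without C404A replicate 2. Without C404A replicate 1, 2 iron regulon genes and 2 mating genes were called. Such shares are close to the 1.45% called among all genes, or rest on 1 gene each. Core histones (9 genes, median 0.13), cytosolic ribosomal proteins (128 genes, 0.05) and the 30 genes of the M/G1 transition (-0.15) held no called member by limma in either fit. At an unadjusted p under 0.05 they held 5, 6 and 8 genes, against 705 of all 5449. The 5 histone and 6 ribosomal protein genes were higher in the C404A mutant and the 8 M/G1 genes lower. Among all genes 251 were higher and 454 lower. Array weights also called 0 in these lists, whereas 1 M/G1 gene was called without C404A replicate 1 and 1 with a trended prior. The same 0 by limma with all arrays and by array weights held for mitochondrial ribosomal proteins (69 genes, 6 at an unadjusted p under 0.05), amino acid synthesis under Gcn4 (49 and 4), the proteasome (36 and 2), sulfate assimilation (32 and 1), the CLB2 cluster of G2/M (27 and 5) and the phosphate regulon (26 and 4). It also held for the glyoxylate cycle (21 and 3), phospholipid synthesis (21 and 1), trehalose and glycogen (20 and 5), the pentose phosphate pathway (13 and 0) and zinc homeostasis (12 and 1). Without the treated C404A replicate 2, 1 gene was called lower in each of the CLB2 cluster, the phosphate regulon and the trehalose and glycogen list, and with a trended prior 1 phospholipid gene was called.

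Most genes called after LoaOOH were also called without it. In untreated cells 98 genes (1.8%) were called between the C404A mutant and the deletant, 39 higher (0.716%) and 59 lower (1.08%). Leaving out untreated C404A replicate 2 or 3 gave 65 and 50 calls, and leaving out untreated deletant replicate 2 or 3 gave 56 and 40. Of the 98 genes, 55 were among the 79 called after LoaOOH, all in the same direction, which is 69.6% of the calls after LoaOOH and 56.1% of those without it. Of the 79 genes, 78 had a difference of the same sign in untreated cells. Those are other arrays, but they may not be independent of the treated ones. In the C404A mutant, treated and untreated arrays of the same number had deviations that correlated across genes by 0.115, 0.182 and 0.605. Treated array 1 with untreated array 2 gave 0.187, and treated array 2 with untreated array 1 gave 0.227. Only replicate 3 thus matched best by number. TOS6 differed 54.9-fold without LoaOOH, SVS1 4.08-fold, HO 3.91-fold, CLB6 4.22-fold, PLM2 2.42-fold and DIN7 2.93-fold. Across all 5449 genes the differences with and without LoaOOH had a Pearson correlation of 0.78, and of 0.71 without SWI6 and TOS6. These points are genes of the same 12 arrays and not independent replicates.

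Whether LoaOOH altered the difference between the strains was tested as an interaction, the difference after LoaOOH minus that without it. By limma 0 of 5449 genes passed (0%), with 107 genes at an unadjusted p under 0.05 and a smallest adjusted p of 0.999, and a fit with array weights also called 0. The 107 genes are a smaller share than the 0.05 that p-values give where nothing differs, and the reason was not tested. The 0 calls therefore do not show that the strains responded alike. The median standard error of the interaction was 0.14, above the 0.10 of a single comparison. SVS1 had an interaction of 0.33 ± 0.15 (SE, unadjusted p = 0.044), PLM2 one of -0.28 ± 0.14 (unadjusted p = 0.0541) and TOS6 one of 0.28 ± 0.23 (unadjusted p = 0.238), all from limma. CYC1, called after LoaOOH but not without it (0.33, adjusted p = 0.17), had an interaction of 0.42 ± 0.15 (SE, unadjusted p = 0.0142). YHB1, a flavohaemoglobin that detoxifies nitric oxide, differed by 0.74 after LoaOOH (adjusted p = 0.0385) and by 0.23 without it (adjusted p = 0.481), with an interaction of 0.50 (unadjusted p = 0.05). PAU2 differed by -0.63 with and -0.27 without LoaOOH (unadjusted p of the interaction = 0.0243, limma). After adjustment none of these genes differed detectably in its response to LoaOOH, and YHB1 lost its call without C404A replicate 2.

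**Figure D5:**
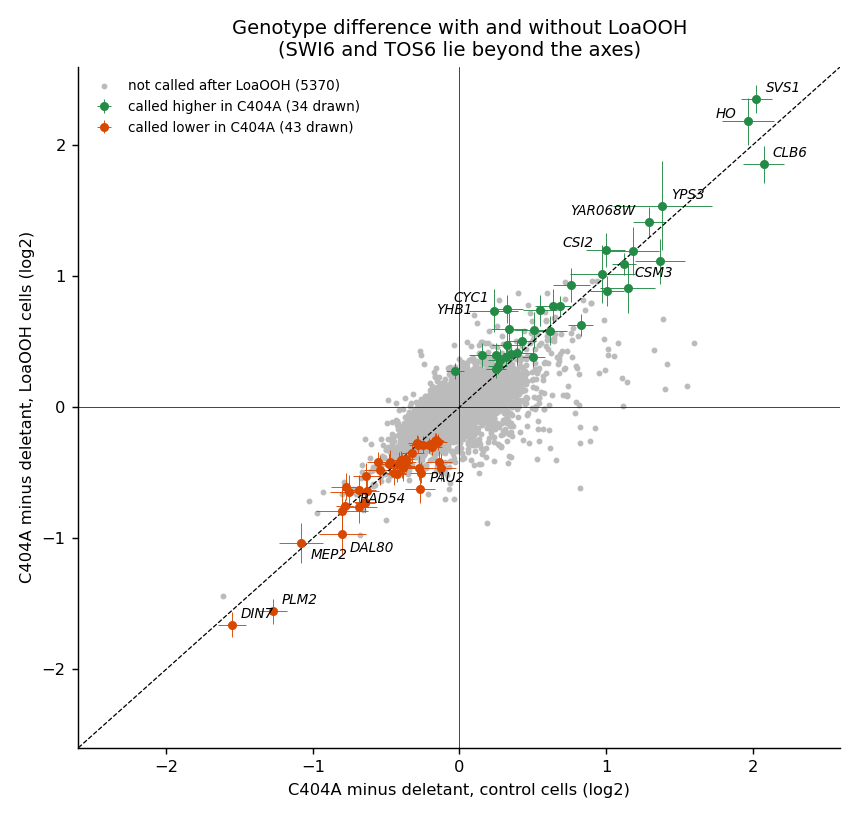
Log2 difference between C404A mutant and deletant for each gene in untreated cells (x axis) and after LoaOOH (y axis), with bars for the standard errors of called genes and a dashed line at equal values. SWI6 and TOS6 lie beyond the axes, and of the called genes 78 of 79 have the same sign on both axes.

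Chromosome V was checked because both mutants stood above wild type along it. After LoaOOH the median over its 259 measured genes was 0.72 above wild type in the C404A mutant and 0.78 above it in the deletant. Between the mutants the median was -0.05 on chromosome V and -0.02 on the other chromosomes, and the 3 treated C404A arrays lay -0.0179, -0.0285 and -0.0769 from the deletant mean. On chromosome V, 3 genes (MNN1, TIR1 and TIM9) were called higher and 1 (PAU2) lower, or 1.54% of its genes. The counts there were 1 higher and 3 lower without the treated C404A replicate 2, with TIR1 and TIM9 lost. MNN1, at 12.6, 12.72 and 12.66 on the C404A arrays, 12.18, 11.99 and 11.92 in the deletant and 11.76, 11.73 and 11.85 in wild type, stood above wild type by 0.88 in the C404A mutant (adjusted p = 4.41e-06) and by 0.25 in the deletant (adjusted p = 0.0814). What the shift of the chromosome contributes to the differences of MNN1 and SWI4 from wild type was not tested.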

How the data were processed

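The authors deposited 1 table of log2 values per probe set for 18 Affymetrix yeast arrays. Per the submitters' processing notes the tools were PLIER and Affymetrix Expression Console. The sources used here give no version, setting or between-array normalization, and the log2 base was taken from the range of the values (2.47 to 14.99). The values were used as deposited and all 18 columns were mapped to samples by title.

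Of 10928 probe sets, 5498 are assigned to 1 S. cerevisiae gene in the platform annotation, which gave 5449 genes. For 47 genes with several probe sets, an ID without a suffix letter was preferred, and after that the highest mean. No filter on dim genes was applied, and 58 genes had a mean below the background of 4.518, the 95th percentile of 1746 probe sets of another organism. Chromosomes come from RefSeq (R64).

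Group means of all 6 groups were fitted with limma 3.58.1 in R 4.3.3 (lmFit, eBayes), tested on simulated data first. Moderated statistics were two-sided with 14.76 degrees of freedom, and Benjamini-Hochberg adjustment ran over all genes at 0.05. The 95% intervals are limma's, per gene. The genes named were the 14 with the largest differences in each direction among called genes with arrays that did not overlap, a panel of 22 G1 regulators and targets, and up to 5 members per list, called ones first. Other genes named, among them OPT2, DUR3, GPX2, NUP116 and YHB1, were chosen after their values were seen. The members and the 32 gene lists were chosen with earlier results of these data known, so list counts are descriptions. Lists share genes.

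Same-numbered replicates were not treated as pairs: the correlation of their deviations from the group means, C404A mutant against deletant after LoaOOH, was 0.559, 0.402 and -0.404 for replicates 1, 2 and 3. Treated and untreated arrays of the same number correlated by 0.115, 0.182 and 0.605 in the C404A mutant and by 0.264, 0.25 and 0.0548 in the deletant. For the C404A mutant, treated array 1 with untreated array 2 gave 0.187, and treated array 2 with untreated array 1 gave 0.227. Both lay above the same-number values of replicates 1 and 2. Such correlations bear on the interaction, where the fit with a replicate block also called 0 genes. Sample descriptions carry the prefix CT for replicates 1 and 2 and JC for replicate 3, with each group on both. Alternatives were quantile normalization, centred medians, a background filter, averaged probe sets, a trended prior, the 6 or 12 compared arrays alone, a replicate block, the CT arrays alone, no chromosome V genes, each array left out, both C404A replicate 2 arrays left out, and array weights, the last chosen after seeing the data.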

Additional observations from a re-analysis of the deposited data

How the results depend on the processing

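After LoaOOH the 79 calls (36 higher, 43 lower) became 26 (16 higher, 10 lower, 25 shared) when the fit held the compared groups alone and 26 (14 higher, 12 lower, 22 shared) on the CT arrays alone. Leaving out 1 of the 6 arrays gave 45 to 77 calls, 21 to 33 higher and 24 to 51 lower. With the replicate block 59 genes were called (25 higher, 34 lower), 57 of them shared. Array weights, chosen after seeing the data, gave 65. Quantile normalization gave 89, centred medians 85, and leaving out both C404A replicate 2 arrays 74. In untreated cells the 98 calls became 34 with the compared groups alone and 15 on the CT arrays alone, and ran from 40 to 99 when 1 array was left out. The interaction had 0 calls in each setting. Of 46 genes followed across the settings, 44 kept their direction in every one. The exceptions were never called: NRM1 (-0.05 with all arrays) ran from -0.26 (without C404A replicate 2) to 0.14 (without C404A replicate 3) when 1 array was left out and was at 0.17 on the CT arrays alone, and MBP1 (-0.09) at 0.013 on the CT arrays alone. Many list members named by the rule were not among these 46, and some changed direction. Without the treated C404A replicate 2, POT1 went from -0.27 to 0.06, PEX18 from -0.27 to 0.003 and SOL4 from -0.24 to 0.01, none of them called. Calls of the 46 genes fell short of the threshold most often on the CT arrays alone (17 genes) and with the compared groups alone (14 genes). Those fits held fewer arrays, and the cause was not tested. The number of arrays limits the precision, and genes near background carry only bounds.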

Other observations

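The following called genes are known from work on chromosome cohesion and segregation. They were picked after their values were seen, in both directions, and no test was made of them as a group. PDS5, a cohesin-associated factor, differed by -0.50 (adjusted p = 0.00486), ECO1, the cohesin acetyltransferase, by -0.42 (adjusted p = 0.00486) and SCC2, of the cohesin loader, by -0.29 (adjusted p = 0.0333). TUB1, alpha-tubulin, differed by -0.40 (adjusted p = 0.00132). SLI15 and ESP1 differed by -0.30 and -0.26, and their calls were lost without the treated C404A replicate 2. Higher in the C404A mutant were MCD1, the cohesin subunit (0.59, adjusted p = 0.0451), and DAD2, a subunit of the Dam1 ring at kinetochores (0.48, adjusted p = 0.0333), and both calls were also lost without that array.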
